A study of Mus musculus with 6 samples.

Results

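The 35 genes described here are the 20 cytosolic aminoacyl-tRNA synthetase genes named for their amino acid and 15 genes of the amino acid response driven by the transcription factor ATF4. They were picked by symbol, as a named pathway, from the 55401 genes of the count matrix. Methionyl-tRNA synthetase, *Mars* here, is listed in the matrix as *Mars1*. All 35 were among the 17310 genes that passed the filter on low counts and were tested. RNA was taken 2 d post differentiation from C2C12, an established line of mouse myoblasts whose cells fuse into myotubes once serum is reduced. The control group (replicates 1, 2 and 3) carries the genotype label wild type. By the paper these were mock cells, sorted for fluorescence, that received a plasmid with Cas9, ZsGreen and a guide matching no mouse sequence. The *Phf2* KO group (replicates 1, 2 and 3) received a pool of plasmids with Cas9 guides against *Phf2*, which encodes a histone H3K9 demethylase, and was sorted in the same way without cloning. Both groups thus shared Cas9, transfection, sorting and 2% horse serum. Double-strand breaks would, by the paper, not occur in the mock cells, and the effect of such breaks by themselves was not tested. Each group was a single uncloned cell pool and the 3 libraries of a group were wells of it, so a difference between the pools cannot be told apart from an effect of *Phf2*, and p-values measure the spread between wells.

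Aminoacyl-tRNA synthetases load each tRNA with its amino acid and so feed the ribosome. They fall into class I and class II by the fold of their catalytic domain, and several of them assemble with scaffold proteins into a multi-synthetase complex. When amino acids run short or protein folding fails, kinases phosphorylate the initiation factor eIF2, translation as a whole slows, and *Atf4* mRNA is translated more. ATF4 protein then activates genes for amino acid import, for asparagine and serine synthesis, for mitochondrial one-carbon metabolism and for many cytosolic synthetases, through DNA elements that join part of a C/EBP site to part of an ATF site. Differentiating muscle cells build large amounts of sarcomeric protein, which draws on amino acids and charged tRNA.

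The core of the ATF4 element was looked for in the promoters because ATF4 is known to act through it. The motif was TGATGNAA, read on both strands, in the RefSeq promoters of GRCm38.p6, which run from 250 bases before to 50 bases after a gene's start. Of the 35 members, 27 had a promoter in the table, and 9 of these (33.3%) held a match, against 4.51% of the 27025 genes of the table. The 9 were *Aars*, *Gars*, *Iars*, *Tars* and *Yars* among the 13 synthetase genes with a promoter, and *Asns*, *Chac1*, *Slc7a11* and *Trib3* among the 14 ATF4 response genes with one. *Cars*, *Hars*, *Lars*, *Nars*, *Rars*, *Vars*, *Wars* and *Slc7a5* were not analysed here for this motif. The members were picked as a pathway driven by ATF4, so their higher share may follow from that choice and is not a result of these data. A match of 8 letters describes the sequence and does not show binding. The matches that lay before the start of the gene in both RefSeq and GENCODE M21 are printed here 5′ to 3′ on the strand of the gene, with the matched letters in capitals and up to 20 bases on either side, so that the shared core and its orientation can be compared. Those of *Aars* and *Asns* that lay before the RefSeq start fell within the GENCODE gene and are not shown. The matches of *Iars*, *Yars* and *Trib3* did not lie wholly before the RefSeq start and are not shown either. *Slc7a11* held 2 matches within one stretch, in opposite orientation, and each is shown on its own line.
Gars, chr6:55037951-55037998, + strand: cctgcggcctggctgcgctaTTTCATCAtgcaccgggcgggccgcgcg
Tars, chr15:11399666-11399693, - strand: gggcggggccaggagtcccgTTGCATCA
Chac1, chr2:119351029-119351076, + strand: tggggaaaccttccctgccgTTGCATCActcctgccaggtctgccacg
Slc7a11, first match, chr3:50443652-50443699, - strand: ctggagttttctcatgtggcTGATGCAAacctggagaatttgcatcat
Slc7a11, second match, chr3:50443633-50443680, - strand: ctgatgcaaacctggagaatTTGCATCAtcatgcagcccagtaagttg

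Depth was similar across the libraries, with 56821143 to 58507833 estimated counts in the control group and 52526109 to 67502788 in the *Phf2* KO group. *Phf2*, the targeted gene, stood at 102, 95.5 and 105 CPM (estimated counts scaled to library size with TMM factors) in the control libraries and at 41.1, 37.6 and 38.6 CPM in the KO libraries, a log2 fold change of -1.37 (SE 0.055, adjusted p = 8.32e-09, edgeR quasi-likelihood test). Over all genes tested, 1122 of the 17310 genes (6.48%) passed an adjusted p of 0.05, 565 of them (3.26%) lower in KO and 557 (3.22%) higher. Every KO library lay below every control library in 12.2% of all genes tested and above every control library in 12.9%. Of 10 myotube markers 8 passed the test, all lower in KO. For all 10, every KO library lay below every control library in CPM. Their summed level was 7206 to 9051 TPM in control and 5796 to 6432 TPM in KO, so the KO cells carried less myotube RNA. TPM is abundance scaled for transcript length and within each library. In such bulk samples fewer myotubes and less RNA per myotube cannot be told apart. The paper reported no significant difference in myotube diameter, area or fusion index, at a later time of differentiation than these libraries. Of 5 myoblast markers only *Cdh15* passed the test, lower in KO, and 2 of the 5 were negative in sign and 3 positive. Their summed level was 288 to 299 TPM in control and 251 to 263 TPM in KO. Of 4 markers each, all 4 of endothelial cells, 3 of blood cells, 3 of adipocytes and 2 of neural cells were under 1 TPM in every library, *Adgre1* and *Lep* being listed at 0 throughout. The summed neural markers were 8.94 to 11.6 TPM in control and 6.69 to 7.38 TPM in KO, where *Tubb3* was lower (adjusted p = 0.0445); the part of other cells in the members' values was not tested.

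The synthetase genes were all well expressed and lay within a narrow band of levels. The highest was *Nars* (asparaginyl-tRNA synthetase), at 231, 168 and 249 TPM in the control libraries and 280, 165 and 180 TPM in the KO libraries. These TPM values spread more than the CPM of the same gene, which were 289, 297 and 277 in control and 311, 252 and 269 in KO. The lowest was *Wars* (tryptophanyl-tRNA synthetase), at 44.6, 46.0 and 42.0 TPM in control and 48.2, 42.1 and 42.8 TPM in KO. The 2 groups overlapped for both genes, and neither passed the test (adjusted p = 0.766 for *Nars* and 0.928 for *Wars*).

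The ATF4 response genes spanned a far wider range of levels. *Atf4* itself was the highest, at 368, 396 and 373 TPM in control and 384, 364 and 359 TPM in KO. *Slc7a11*, the cystine importer, was the lowest, at 3.98, 4.29 and 3.93 TPM in control and 3.83, 7.41 and 3.20 TPM in KO. The high TPM of KO replicate 2 had no counterpart in CPM, where *Slc7a11* was 32.9, 37.2 and 33.0 in control and 33.7, 31.6 and 26.8 in KO. Between these ends lay *Slc3a2* (182 ± 7.48 TPM, SD, n = 3 control libraries), the heavy chain shared by several amino acid exchangers, and the stress-induced *Sesn2* (20.3 ± 1.35 TPM) and *Trib3* (15.7 ± 1.65 TPM).

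**Figure D1:**
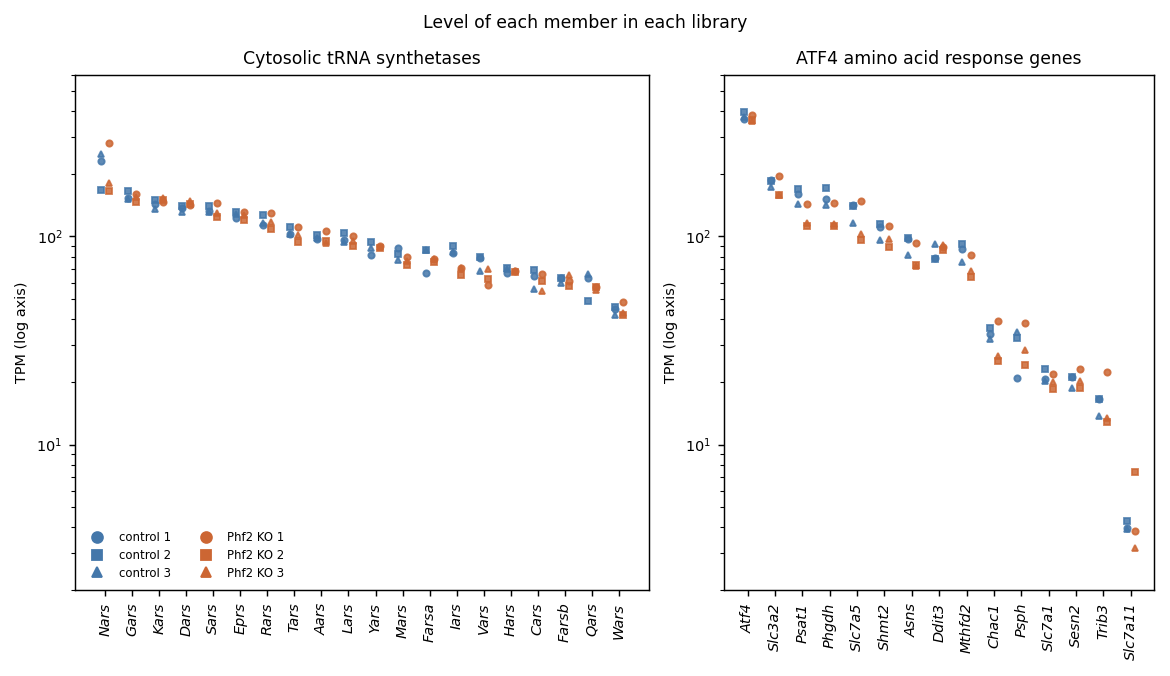
Level of each of the 35 members in each library, in TPM on a log axis, with control libraries in blue, Phf2 KO libraries in orange and the marker shape giving the replicate number. Synthetase genes run from Nars down to Wars within a narrow band, while the ATF4 response genes run from Atf4, at 359 to 396 TPM, to Slc7a11, at 3.20 to 7.41 TPM.

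The comparison of *Phf2* KO with control asks whether the loss of *Phf2* altered the RNA of these genes in early differentiation. A single member passed the test over all 6 libraries. *Iars*, which encodes isoleucyl-tRNA synthetase, stood at 163, 175 and 166 CPM in control and at 141, 128 and 133 CPM in KO. Every KO library lay below every control library, the means being 168 ± 6.33 and 134 ± 6.55 CPM (SD, n = 3 each). The log2 fold change was -0.33 (SE 0.049, 95% interval -0.43 to -0.22, adjusted p = 0.0012, edgeR quasi-likelihood test). On the TPM scale *Iars* was 85.8 ± 3.53 in control and 68.8 ± 3.29 in KO, and there it missed the threshold in limma on log2(TPM + 1), with an adjusted p of 0.0608. That fit called 158 genes in the whole table. *Iars* passed in 16 of the 18 alternatives tried, with log2 fold changes between -0.365 and -0.295. Thus 1 of 35 members (2.86%) was called lower and 0 higher, beside 3.26% and 3.22% of all genes tested. Among all genes with a mean CPM in the members' range, 4.56% were called lower and 5.26% higher.

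*Iars* is also the only member on the chromosome of *Phf2*. It lies on the + strand of chromosome 13 at chr13:49682100-49734267 (GRCm38, GENCODE M21), 0.811 Mb from *Phf2* at chr13:48801750-48871119 on the - strand. Within 1 Mb of *Phf2* 20 other genes were tested. Of these *Iars*, *Card19* (log2 fold change -0.34, adjusted p = 0.0184) and *Bicd2* (-0.27, adjusted p = 0.00234) were lower in KO, *Aspn* was higher (0.37, adjusted p = 2.11e-04), and the median over the 20 was 0.02. The lower genes made up 15% of the 20, against 3.26% of all genes tested, and 1 of 20 was higher, against 3.22%. The 15% counts *Iars* itself, already called as a member, so that share is in part fixed by its call. On the side of *Iars* that faces *Phf2*, its neighbour *Nol8* had a log2 fold change of -0.12 (adjusted p = 0.445) and the nearby *Ogn* one of 0.13 (adjusted p = 0.0504, or 0.0344 with a replicate block). Over chromosome 13 without *Phf2*, 42 of 686 genes tested were lower (6.12%) and 8 higher, with a median log2 fold change of -0.07. On the 19 other chromosomes the share lower ran from 1.55% to 4.82% and the median from -0.03 to 0.03. Whether the position of *Iars* has a part in its lower level was not tested. These neighbours were chosen after their values were seen, and genes beyond *Iars* were not examined singly.

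**Figure D2:**
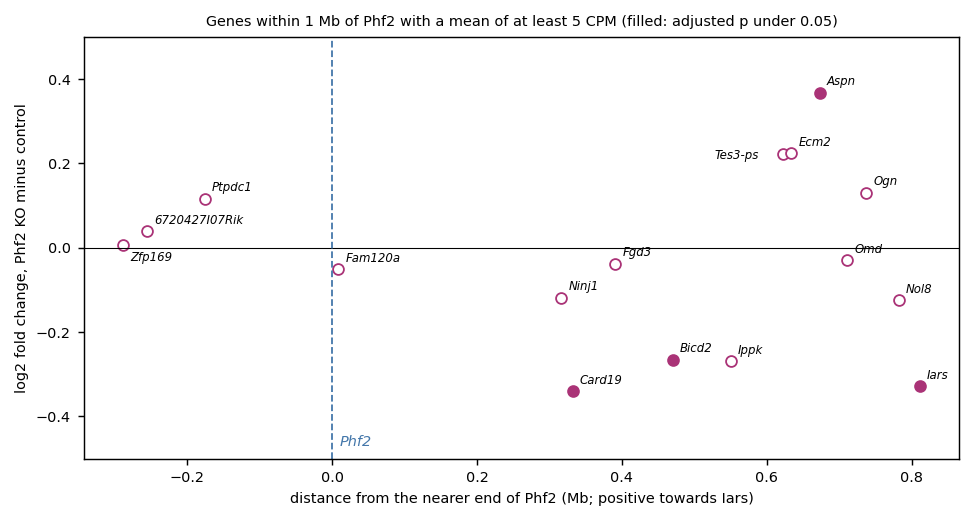
Log2 fold change, Phf2 KO minus control, of the 16 genes within 1 Mb of Phf2 that had a mean of at least 5 CPM, against the distance in Mb from the nearer end of Phf2, positive towards Iars; filled points have an adjusted p under 0.05. Iars, Card19 and Bicd2 are the filled points below 0 and Aspn the filled point above it, with unfilled points on both sides of 0 between them.

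Of the other 19 synthetase genes none passed the test, and their log2 fold changes lay between -0.16 and 0.07. Of the 20, 17 were negative in sign and 3 positive, namely *Dars* (0.07), *Kars* (0.05) and *Yars* (0.00), and the median was -0.05 against 0.00 over all genes tested. At an unadjusted p under 0.05 there were 5 of 20 (25%), against 19.4% of all genes tested. Over the 8209 genes with a mean CPM in the members' range that share was 27.3%. The 95% intervals of all 20 lay between -0.43 and 0.17. Nearest to the threshold in the main fit, which had no replicate block, was *Qars*, the glutaminyl enzyme. Its control libraries, at 82.7, 83.4 and 82.7 CPM, all lay above its KO libraries, at 75.4, 76.5 and 73.5 CPM, and the log2 fold change was -0.14 (SE 0.045, adjusted p = 0.0802). *Farsa*, the alpha subunit of phenylalanyl-tRNA synthetase, was close behind, with no overlap in CPM between the groups either (71.8 ± 1.95 CPM in control, 64.6 ± 1.28 CPM in KO, log2 fold change -0.15, adjusted p = 0.0876). In TPM the groups overlapped for both genes. *Qars* was at 63.0, 48.7 and 66.2 TPM in control and 57.0, 57.2 and 55.1 TPM in KO. *Farsa* was at 66.6, 85.7 and 86.0 TPM in control and 77.6, 75.8 and 77.6 TPM in KO. The beta subunit, *Farsb*, had overlapping groups and a log2 fold change of -0.06 (adjusted p = 0.679). *Dars*, the aspartyl enzyme, was the only member with every KO library above every control library, at 137 ± 5.80 and 144 ± 0.343 CPM (adjusted p = 0.402). Thus in CPM 3 of 20 synthetase genes had KO libraries wholly below control (15%, against 12.2% of all genes) and 1 wholly above (5%, against 12.9%). Over the genes in the members' CPM range these shares were 14.2% and 17.8%.

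By catalytic class, the median log2 fold change was -0.13 for the class I enzymes, *Iars* among them, and -0.04 for class II, a difference that was not tested. The 8 genes of the multi-synthetase complex had a median of -0.04 and the 12 outside it -0.05. *Eprs*, the bifunctional glutamyl-prolyl enzyme, belongs to both classes and had a log2 fold change of -0.03 (adjusted p = 0.832). *Vars* (-0.16, adjusted p = 0.117) and *Mars* (-0.13, adjusted p = 0.205), both class I, missed the threshold. *Vars* passed it without control replicate 3, at -0.22 (adjusted p = 0.0297).

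**Figure D3:**
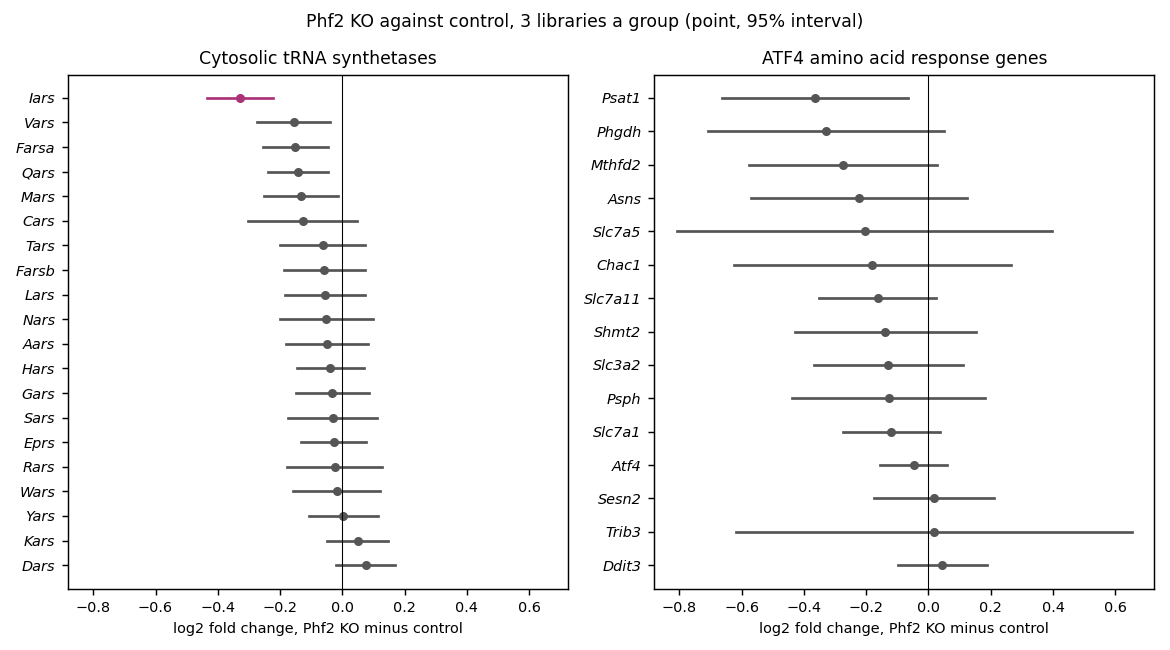
Log2 fold change, Phf2 KO minus control, of each member with its 95% interval from the edgeR quasi-likelihood fit on 3 libraries a group; Iars, in purple, is the member with an adjusted p under 0.05. The widest intervals are those of Trib3 and Slc7a5 among the ATF4 response genes, while those of Atf4 and Ddit3 are within the range of the synthetase genes in width.

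None of the 15 ATF4 response genes passed the test over all 6 libraries, 12 having a negative and 3 a positive log2 fold change, with a median of -0.14. In the edgeR quasi-likelihood test 1 of 15 (6.67%) had an unadjusted p under 0.05, against 19.4% of all genes. Over the genes in the members' CPM range that share was 27.3%. The exactTest called 1 of the 15 lower (*Psat1*), where it called 3.41% of all genes lower, and DESeq2 called 1 (*Mthfd2*), where it called 4.49% lower. In 0 of the 15 were the KO libraries wholly below or wholly above the control libraries, against 12.2% and 12.9% of all genes. Over the genes in the members' CPM range these shares were 14.2% and 17.8%. The absence of calls in the edgeR quasi-likelihood test did not hold without KO replicate 1. In that fit 8 of the 15 were lower in KO past the threshold, against 2.64% of all genes tested. KO replicate 1 was the highest KO library for all 15, so leaving it out lowers their KO means by construction. The fit is described after the levels of the single genes.

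Of the regulators, *Atf4* (chr15:80255184-80257541) had 297, 321 and 299 CPM in control and 313, 292 and 281 CPM in KO. Its log2 fold change was -0.05 (SE 0.050, 95% interval -0.15 to 0.06, adjusted p = 0.677). *Ddit3*, the factor CHOP that acts downstream of ATF4 in prolonged stress, had 32.6, 35 and 37.3 CPM in control and 36.9, 35.2 and 36.0 CPM in KO, with a log2 fold change of 0.04 (adjusted p = 0.802). For both regulators the groups overlapped. *Ddit3* stood on 2 rows of the matrix, and the row not used here had a count of 0 in all 6 libraries while its TPM was 34.8 to 53.7. *Ddit3* overlaps *Mars* by 68 bases on the opposite strand, and reads of such stretches are uncertain, since the strand setting of the counting is not given in the sources used here.

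The 4 stress targets of ATF4 spread widely among the KO libraries, with a median SD of 0.298 in log2 CPM against 0.132 among the control libraries. *Asns*, asparagine synthetase, had 90.2, 91.2 and 75.0 CPM in control and 86.9, 67.5 and 65.3 CPM in KO (log2 fold change -0.22, SE 0.14, adjusted p = 0.483). *Chac1*, which degrades glutathione, had 26.0, 27.7 and 24.4 CPM in control and 30.2, 19.0 and 19.7 CPM in KO (-0.18, SE 0.18, adjusted p = 0.691). *Trib3*, a pseudokinase that restrains ATF4 and CHOP, had 15.3, 15.7 and 12.6 CPM in control and 20.8, 11.3 and 12.1 CPM in KO (0.02, SE 0.26, adjusted p = 0.986). In each of these genes KO replicates 2 and 3 lay below all control libraries, while KO replicate 1 did not. *Chac1* and *Trib3* were higher in KO replicate 1 than in any control library. *Sesn2*, which senses leucine for mTORC1 signalling, had a log2 fold change of 0.02 (95% interval -0.17 to 0.21, adjusted p = 0.949).

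The log2 fold changes of the 5 serine and mitochondrial one-carbon enzymes were all negative in sign, with a median of -0.27, and *Psat1*, *Phgdh* and *Mthfd2* had the 3 lowest of the response. *Psat1*, the transaminase of serine synthesis, had 192, 206 and 172 CPM in control and 173, 135 and 135 CPM in KO, a log2 fold change of -0.36 (SE 0.12, 95% interval -0.66 to -0.07, adjusted p = 0.176). *Phgdh*, which catalyses the first step of that pathway, had 133, 151 and 123 CPM in control and 128, 97.4 and 97.5 CPM in KO (-0.33, SE 0.15, adjusted p = 0.319). For both enzymes KO replicate 1 lay within the range of the control libraries, and KO replicates 2 and 3 lay below it. *Mthfd2*, the mitochondrial folate enzyme, had a log2 fold change of -0.27 (adjusted p = 0.302). *Shmt2*, which splits serine into glycine and a one-carbon unit, had one of -0.14 (adjusted p = 0.623). *Psph*, the phosphatase that completes serine synthesis, had 24.4, 25.2 and 25.6 CPM in control and 29.0, 19.9 and 19.8 CPM in KO (-0.13, adjusted p = 0.698). It overlaps the highly expressed *Cct6a* by 452 bases on the opposite strand.

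The 4 transporter genes were highest among KO libraries in replicate 1 as well. *Slc7a5*, the light chain of the large neutral amino acid exchanger, had 230, 228 and 187 CPM in control and 242, 156 and 162 CPM in KO (log2 fold change -0.21, SE 0.22, adjusted p = 0.722). Its partner *Slc3a2* had 168, 165 and 153 CPM in control and 173, 137 and 134 CPM in KO (-0.13, adjusted p = 0.576). In both subunits KO replicate 1 was the highest of all 6 libraries and KO replicates 2 and 3 the lowest. The cationic amino acid importer *Slc7a1* had a log2 fold change of -0.12 (adjusted p = 0.417) and *Slc7a11* one of -0.16 (adjusted p = 0.333). The locus of *Slc7a5* is overlapped on the opposite strand by *Galnt2l*, which was listed at a mean of 87.6 TPM.

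KO replicate 1 therefore stood apart from the other KO libraries across the members. It was the highest of the 3 KO libraries for 15 of 15 ATF4 response genes and for 18 of 20 synthetase genes. Over the 35 members that is 94.3%, against 33.8% of all genes tested. Its log2 CPM exceeded the mean of KO replicates 2 and 3 by a median of 0.36 over the ATF4 response genes, from 0.05 for *Ddit3* to 0.83 for *Trib3*. Over the synthetase genes that median was 0.13, from 0.00 for *Dars* to 0.27 for *Cars*. Over the 8209 genes with a mean CPM in the members' range it was -0.01. The SD of log2 CPM among KO libraries was larger than among control libraries for 14 of 15 ATF4 response genes, with medians of 0.206 and 0.107. For the synthetase genes it was larger for 12 of 20 (60%), with medians of 0.0820 and 0.0706. Over all genes tested the share was 51.05%. Over the genes in the same CPM range it was 51.19%, with medians of 0.0691 and 0.0661.

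The control libraries were not level either. Control replicate 2 was the highest of the 3 controls for 29 of 35 members (82.9%, against 32.2% of all genes tested), and control replicate 3 was the lowest for 24 of 35 (68.6%, against 34.1%). The summed CPM of the 15 ATF4 response genes was 1546, 1621 and 1409 in control and 1574, 1243.5 and 1242.9 in KO. That of the 20 synthetase genes was 2958, 3129.5 and 2890 in control and 3075, 2739 and 2794 in KO. In both sums KO replicate 1 lay within the control range, and KO replicates 2 and 3 lay below every control library. The myotube markers were ordered in part the same way, with KO replicate 1 the highest of the KO libraries for 8 of 10 and control replicate 3 the lowest of the controls for 10 of 10. The part of the differentiation state in the members' spread was not tested.

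**Figure D4:**
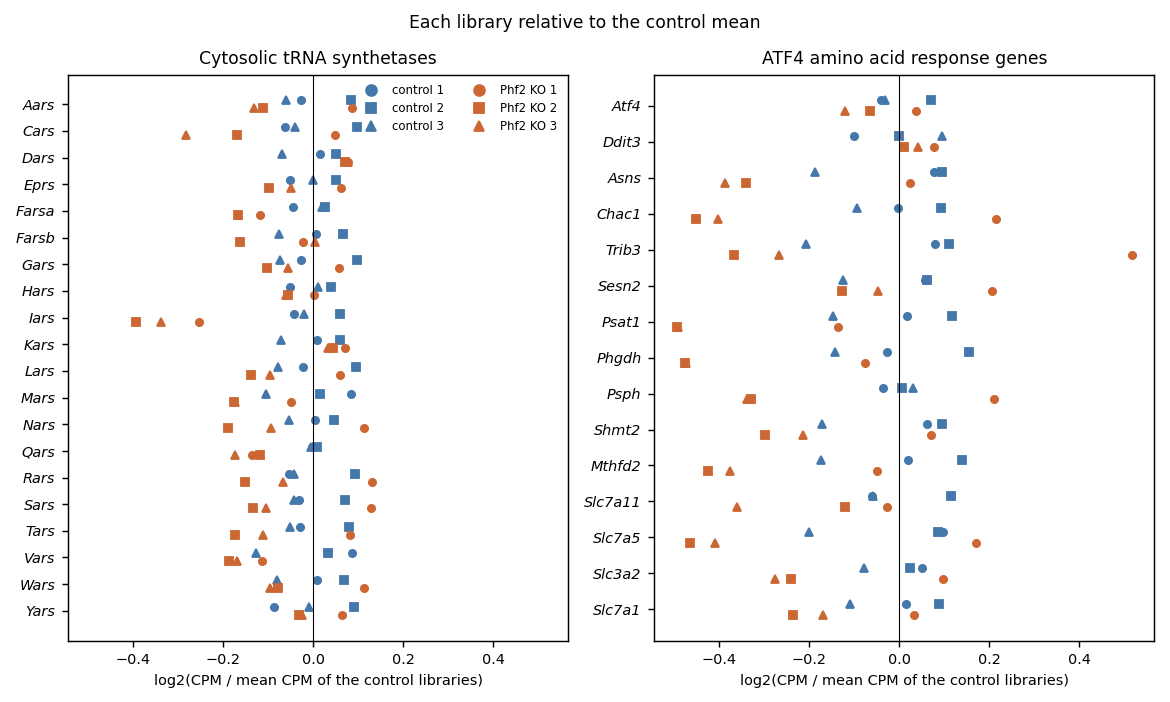
Log2 ratio of the CPM in each library to the mean CPM of the control libraries, for each member, with control libraries in blue, Phf2 KO libraries in orange and the marker shape giving the replicate number. For the ATF4 response genes the KO replicate 1 circle lies to the right of the other orange markers in all 15 rows, and for Iars all 3 orange markers lie left of the blue ones.

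The replicate numbers showed the same division. KO replicate 2 was below control replicate 2 for 33 of 35 members and KO replicate 3 below control replicate 3 for 30 of 35. KO replicate 1 was below control replicate 1 for 10 of 35. Over all genes tested the shares were 50.5%, 49.6% and 49.4% for replicates 1, 2 and 3. For the ATF4 response genes the median log2 difference between libraries of one number was 0.05, -0.39 and -0.20 for replicates 1, 2 and 3. For the synthetase genes it was 0.08, -0.20 and -0.04.

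KO replicate 1 was the highest KO library for all 15 ATF4 response genes, so leaving it out lowers their KO means by construction. The calls of that fit are no separate evidence of a lower level in KO. Without KO replicate 1, 8 of the 15 ATF4 response genes were lower in KO past the threshold, where 2.64% of all genes tested were. They were *Psat1* (log2 fold change -0.49, adjusted p = 0.00191), *Phgdh* (-0.47, adjusted p = 0.00596), *Chac1* (-0.43, adjusted p = 0.0164), *Slc3a2* (-0.26, adjusted p = 0.0199), *Mthfd2* (-0.40, adjusted p = 0.0209), *Slc7a5* (-0.44, adjusted p = 0.0215), *Asns* (-0.36, adjusted p = 0.0321) and *Psph* (-0.33, adjusted p = 0.0378), all by the edgeR quasi-likelihood test on 3 control and 2 KO libraries. They include 4 of the 5 serine and one-carbon enzymes and both subunits of the neutral amino acid exchanger, but neither regulator, *Atf4* standing at -0.09 (adjusted p = 0.366) and *Ddit3* at 0.03 (adjusted p = 0.919). *Trib3* went from 0.02 to -0.32 and missed the threshold (adjusted p = 0.192). The median of the 15 went from -0.14 to -0.32, and without KO replicate 2 or KO replicate 3 it was -0.07 or -0.08. Among the synthetase genes *Iars* was again the only one called, at -0.37 (adjusted p = 0.00235), and *Cars* came closest to joining it (-0.22, adjusted p = 0.0513). Leaving out any other single library gave 0 of 15 ATF4 response genes. KO replicate 1 held 61821120 estimated counts, between the other KO libraries, and had the highest *Phf2* level of the 3, at 41.1 CPM against 37.6 and 38.6. The part of either in its values was not tested.

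**Figure D5:**
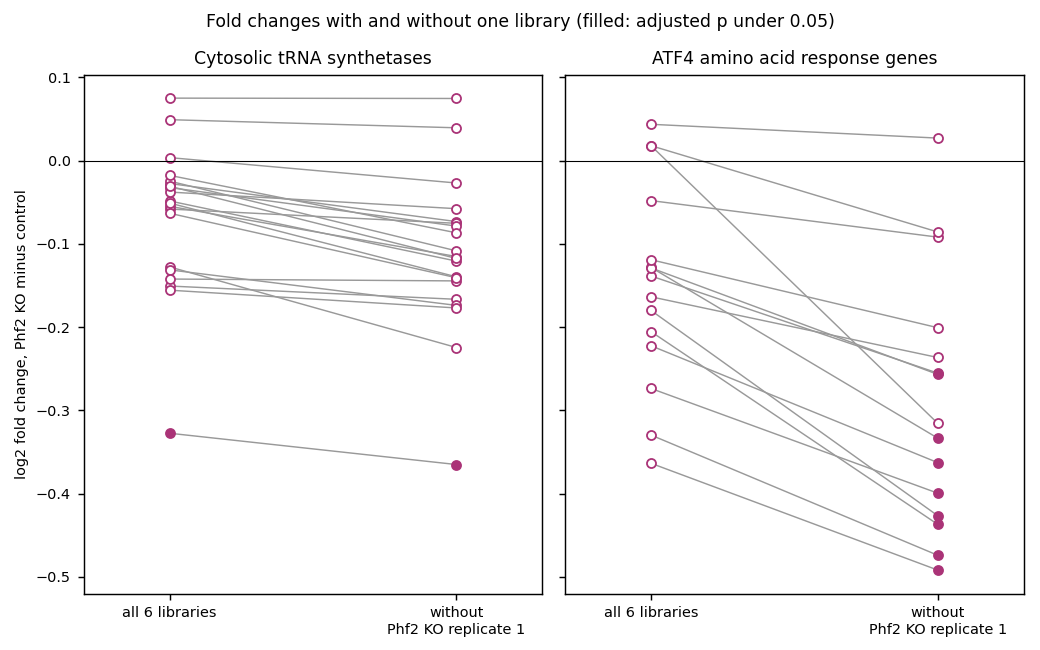
Log2 fold change, Phf2 KO minus control, of the 20 synthetase genes and the 15 ATF4 response genes with all 6 libraries and without Phf2 KO replicate 1; each line is a gene, and filled points have an adjusted p under 0.05. No ATF4 response gene is filled on the left and 8 are on the right, while Iars is filled on both sides.

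Further genes of the pathway were taken as lists. Of 16 genes for eIF2, its kinases and its exchange factor, 1 was higher in KO (6.25%, against 3.22% of all genes tested). This was *Ppp1r15b*, the constitutive subunit that directs a phosphatase to eIF2, at 137, 131 and 134 CPM in control and 163, 145 and 156 CPM in KO (log2 fold change 0.21, SE 0.049, adjusted p = 0.0212). All KO libraries of *Ppp1r15b* lay above all control libraries, a pattern seen in 12.9% of all genes tested. Of the 6 fits that left out a library, *Ppp1r15b* passed in the one without KO replicate 2 alone. It also missed the threshold in both limma fits of log2 TPM. Of 17 other amino acid transporters tested, 1 was higher (5.88%, against 3.22% of all genes tested). *Slc7a6*, a light chain that exchanges cationic for neutral amino acids, had 44.2, 43.9 and 42.0 CPM in control and 50.9, 55.6 and 50.4 CPM in KO (0.27, SE 0.059, adjusted p = 0.0136), again with no overlap. It passed without KO replicate 1 too, but not without control replicate 2 or KO replicate 2, nor in the limma fits of log2 TPM. In the fit without KO replicate 1 the glycine transporter *Slc6a9* was lower, 1 of 17 against 2.64% of all genes tested.

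Of 30 other genes of the ATF4 pathway none passed over all 6 libraries, with a median of -0.05, and 7 of 30 (23.3%, against 19.4% of all genes) had an unadjusted p under 0.05 in the edgeR quasi-likelihood test. Among the alternatives, exactTest called 1 lower (*Vldlr*, a lipoprotein receptor), where it called 3.41% of all genes lower. The limma-voom fit also called *Vldlr* lower, with 531 of 17310 genes. DESeq2 called 2 lower (*Vldlr* and *Got1*), against 4.49% of all genes, and 1 higher (*Cebpg*), against 749 of 17310. The edgeR quasi-likelihood test with a replicate block called 2 lower, *Vldlr* (adjusted p = 0.0133) and *Got1* (adjusted p = 0.0359). That fit called 669 of 17310 genes lower. Both were also called lower without a filter, with a minimum of 1 CPM in 3 libraries and with counts divided by 4. *Vldlr* was weakly expressed, at a mean of 2.47 CPM in control and 1.01 CPM in KO. KO replicate 1 was the highest KO library for 22 of these 30 (73.3%). Without it 4 of the 30 were lower in KO, against 2.64% of all genes tested, namely *Aldh18a1*, *Gpt2*, *Got1* and *Eif4ebp1*. The median was then -0.16. Without KO replicate 3, 1 was higher (*Cebpb*), against 289 of 17842 genes, and the median was 0.01. The 4 lower genes serve proline synthesis, alanine and aspartate transamination and the restraint of cap-dependent translation. The 17 mitochondrial synthetase genes, which load the tRNAs of the mitochondrion and had a median of 0.01, and the 11 genes of the complex's scaffold and related tRNA enzymes, with a median of -0.02, held no gene past the threshold in the edgeR quasi-likelihood test, exactTest, DESeq2 or limma-voom, or without KO replicate 1, with 4 (23.5%) and 0 genes at an unadjusted p under 0.05 over all 6 libraries, against 19.4% of all genes. KO replicate 1 was the highest KO library for 9 of the 17 and 3 of the 11.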

How the data were processed

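RNA from 6 wells of C2C12 cells (3 control, 3 *Phf2* KO) was polyA-selected and sequenced with a directional kit. The authors aligned reads to mm10 with HISAT2, per the labels, and counted with StringTie; versions are not given in the sources used here. The deposited matrix holds estimated counts per gene. The deposited tables of each library give TPM (treated as a signal, scaled by the authors), used here to compare levels between genes and in an alternative. The members and lists were chosen with earlier results of these data known.

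Counts were tested in R 4.3.3 with edgeR 4.0.16 (filterByExpr, minimum count 10; TMM; robust quasi-likelihood test, both directions; prior count 0.125; Benjamini-Hochberg over 17310 genes; threshold 0.05), on a script tested on simulated data. Alternatives were exactTest, DESeq2 1.42.0, limma 3.58.1 (voom, and log2 of TPM with pseudocounts 1 and 0.1), other scalings and filters, counts divided by 4, a replicate block and leaving out each library. Libraries with the same replicate number deviated together from their group means (correlations 0.235, 0.258 and 0.168 over 10923 genes). Deviations cancel within a group, which pushes the other pairs towards negative values (at most -0.00193). The numbers come from the sample titles, which do not state a pairing. The main test was unpaired, and the replicate block was an alternative.

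Values in every library were to be given for members past the threshold, for *Atf4*, *Ddit3*, *Asns*, *Chac1* and *Trib3*, for the highest and lowest member of each group by TPM and for the member nearest to the threshold; from other lists, for at most 5 genes past it. *Psat1*, *Phgdh*, *Psph*, *Slc7a5*, *Slc3a2* and the genes called without KO replicate 1 were added after their values were seen. Promoters are those of RefSeq (GRCm38.p6) and gene positions those of GENCODE M21.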

Additional observations from a re-analysis of the deposited data

How the results depend on the processing

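Of the 630 values of single members under the 18 alternatives, 586 kept their direction and their side of the threshold. The number of members lower in KO was 1 over all libraries, 2 with DESeq2 (*Mthfd2* added) and with exactTest (*Psat1* added), 0 in both limma fits of log2 TPM (pseudocounts 1 and 0.1), and 1 to 9 when a library was left out. For the ATF4 response genes alone the count was 0, 1 with DESeq2, 1 with exactTest and 0 to 8 when a library was left out, the 8 without *Phf2* KO replicate 1. For the synthetase genes it was 1, 0 in both TPM fits and 1 to 2 when a library was left out, the 2 without control replicate 3. The number higher was 0 throughout. The medians kept their sign, from -0.32 to -0.07 for the ATF4 response genes and from -0.12 to -0.01 for the synthetase genes when a library was left out. With the replicate block no member's call changed, and *Trib3* changed sign to -0.0284. By that blocked edgeR quasi-likelihood test *Vars* came nearest to the threshold (adjusted p = 0.0674, against 0.117 in the main fit). *Asns* (0.0727 against 0.483) and *Psat1* (0.0742 against 0.176) followed.

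The sign of 12 members turned under some alternative, none of them passing the threshold there. With TPM pseudocounts of 0.1 and 1 *Psph* was 0.0526 and 0.0506, *Slc7a11* 0.144 and 0.131, and *Wars* 0.00337 and 0.00333. *Trib3* was -0.0247 with limma-voom. *Yars* was -4.03e-05 with a minimum of 1 CPM in 3 libraries, -0.000307 without a filter and -0.00656 with upper-quartile scaling. When a library was left out, the log2 fold change ran from -0.00672 to 0.0906 for *Ddit3*, -0.0733 to 0.00699 for *Eprs*, -0.0787 to 0.0182 for *Gars*, -0.14 to 0.0133 for *Nars*, -0.109 to 0.0348 for *Rars*, -0.118 to 0.0178 for *Sars*, -0.0858 to 0.0845 for *Sesn2*, -0.316 to 0.176 for *Trib3*, -0.0868 to 0.0209 for *Wars* and -0.0412 to 0.0511 for *Yars*. The cause was not tested. Over all genes the calls numbered 1122, but 158 and 178 in the TPM fits, 468 without control replicate 2, 577 without KO replicate 2 and 613 without KO replicate 3.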
